A study of Rattus norvegicus with 12 samples.

Results

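The comparison concerns the B12 line, described as stromal cells of the rat lymph node, 24 h after exosomes from wild-type ASML cells were added (wt exosomes). B12 cells that received none are the comparison group. ASML is a metastasizing rat pancreatic adenocarcinoma line. The samples were taken by their labels: replicates 1 and 2 of B12 cells with wt exosomes and replicates 1 and 2 of untreated B12 cells, 4 of the 12 samples of the series. The other arrays are 2 of B12 cells given exosomes made by CD44v knockdown ASML cells (kd exosomes) for 24 h, 3 of wt exosomes and 3 of kd exosomes; CD44v stands for the variant isoforms of the adhesion receptor CD44. B12 is a cell line in culture, so the cells met the exosomes without the lymph, immune cells and vessels of a node. Neither a dose of exosomes nor a mock treatment of the untreated cells is named in the labels. All changes below are wt exosomes minus untreated within the same replicate number, in log2 units of background-corrected, quantile-normalized array signal. Where 2 values stand together, number 1 comes first.

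Exosomes are small vesicles that tumour cells release, and they carry membrane proteins, enzymes, messenger RNA and microRNA to other cells. In a lymph node the stromal cells build the scaffold of the tissue and secrete the chemokines that guide leukocytes. Metastasizing tumours can change that stroma before tumour cells arrive, through matrix-degrading proteases, adhesion molecules and inflammatory mediators. Cells that stop dividing lower a large set of mitotic genes together: in G1 or quiescence a repressor complex, DREAM, sits on their promoters at the cell cycle genes homology region, with the core TTTGAA, and the activator NF-Y binds CCAAT boxes nearby.

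The arrays of the 4 samples were alike in quality, but replicate number 1 and replicate number 2 differed in marker genes. The mean signal over background was 562 and 579.6 after wt exosomes, against 504.7 and 587.8 in untreated cells, and 54.3% and 53.7% of probes were detected, against 53.2% and 53.2%. Between the numbers, the wt exosome arrays differed by at least 1 in log2 in 1556 probes (13.4%) and the untreated arrays in 2014 (17.3%). Cxcl12, the stromal chemokine that binds CXCR4, lay at 8.04 and 14.98 after wt exosomes, against 7.76 and 14.83 in untreated cells, and Pdgfra, a receptor of fibroblasts, at 4.40 and 11.46 after wt exosomes, against 5.04 and 11.32 in untreated cells; it was not detected on wt exosome array 1. Krt19, a keratin of simple epithelia, lay at 12.44 and 9.97 after wt exosomes, against 13.98 and 9.73 in untreated cells, and Lgals4, a galectin of gut epithelium, at 13.61 and 10.28 after wt exosomes, against 14.34 and 9.50 in untreated cells. These 4 genes separated the numbers under either treatment, as did some other members of both lists, but not all. Of 24 stroma markers detected on any of the 4 arrays, 11 were lower by at least 1 in number 1 than in number 2 under both treatments, 1 was higher and 12 were neither; of 20 epithelial markers 9 were higher in number 1, 1 was lower and 10 were neither. The exceptions were Fbln1, fibulin 1, of the stroma list (11.83 and 9.11 after wt exosomes, against 11.35 and 9.24 in untreated cells) and Lcn2, lipocalin 2, of the epithelial list (6.09 and 12.58 after wt exosomes, against 4.78 and 12.17 in untreated cells). Vim, the filament of mesenchymal cells, stood near 13 on all 4 arrays (13.00 and 12.89 after wt exosomes, against 12.93 and 12.99 in untreated cells). Of the 27 stroma markers on the array, 21 and 21 were detected after wt exosomes, against 19 and 21 in untreated cells, and Thy1, Fap and Tcf21 were not detected on any of the 4. Of 26 epithelial markers, 19 and 15 were detected, against 18 and 14; Epcam, Krt18 and Ocln were not detected on any of the 4. The T cell and leukocyte genes Ptprc, Cd3d, Cd3e and Cd3g were not detected on any of the 4 arrays either. Nor were the endothelial genes Cdh5 and Emcn. Other members of these lists were detected. Cd14 (12.80 and 11.45 after wt exosomes, against 13.35 and 10.91 in untreated cells) and Cd68 were detected on all 4. Of 19 leukocyte markers 3 and 3 were detected, against 4 and 6. Of 15 endothelial markers 8 and 8 were detected, against 9 and 9, among them Tek (8.36 and 5.76, against 9.15 and 5.73). The labels leave unsaid what a replicate number stands for, and list medians are therefore given for both numbers. In such bulk samples fewer cells of a type and less RNA per cell cannot be told apart.

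Of the 24 gene lists, the one furthest from 0 was that of the genes that run mitosis, which stood lower after wt exosomes. Of 55 listed genes of mitosis and chromosome segregation, 38 were on the array and 36 passed the filter on dim probes. After wt exosomes 35 of the 36 lay lower in both numbers and 0 lay higher in both; of all 11631 probes tested, 2865 (24.6%) lay lower in both, 3208 (27.6%) higher in both and 5519 (47.5%) in opposite directions. The median change of the list was −1.04 in number 1 and −1.78 in number 2, against 0.0178 and 0.00714 for all probes. For 33 of the 36 both wt exosome arrays lay below both untreated arrays, as was so for 1364 (11.7%) of all probes. The list was compiled with earlier results of these data known, so its counts are a description and carry no test. Limma, fitted on all 11631 probes with the replicate number as a block, called 0 probes at an adjusted p under 0.05 (0%); the lowest adjusted p was 0.538. The count was 7 without wt exosome array 1, 1 without untreated array 1 and 15 without untreated array 2, each of which leaves a single pair. At an unadjusted p under 0.05, 32 of the 36 mitosis genes lay lower and 0 higher, where 375 (3.22%) of all probes lay lower and 275 (2.36%) higher.

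**Figure D1:**
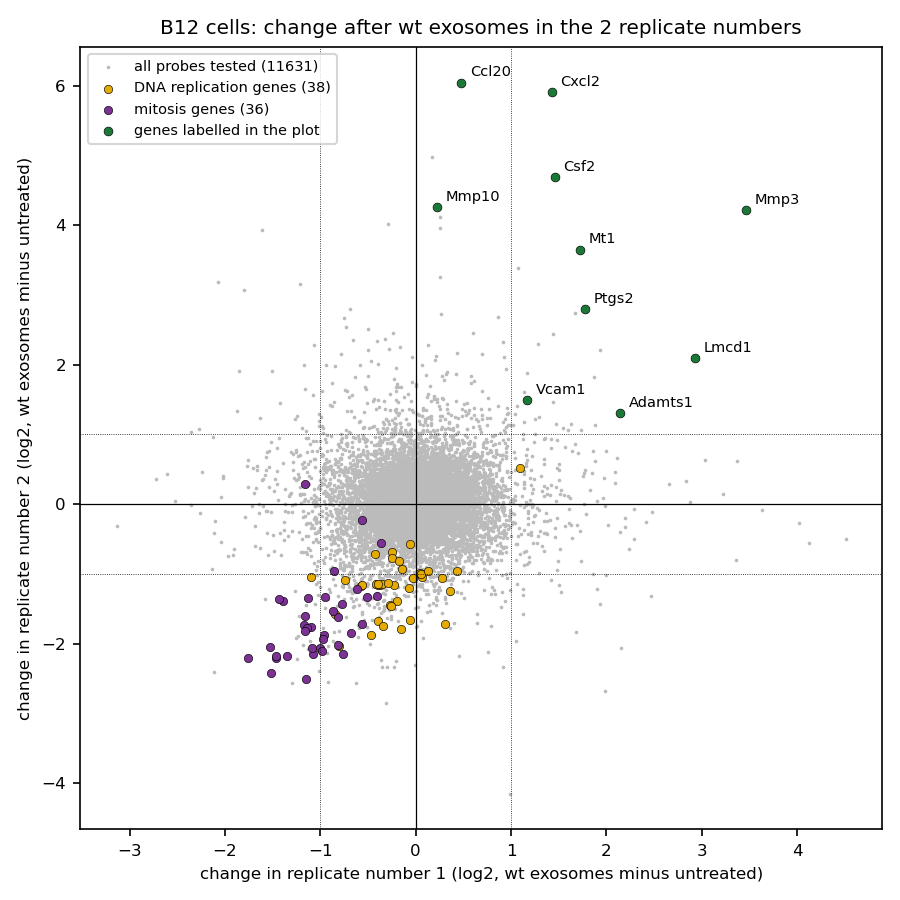
Change of each tested probe after wt exosomes in replicate number 1 (horizontal) and number 2 (vertical), in log2, wt exosomes minus untreated; dotted lines mark a change of 1 in either direction. The mitosis genes lie together at the lower left with 35 of 36 below 0 in both numbers, while the whole cloud of 11631 probes shows almost no relation between the numbers (r = 0.08).

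The entry into mitosis is set by Cdk1, the mitotic kinase, and its cyclins. Ccnb2, a B-type cyclin, lay at 10.59 and 9.76 after wt exosomes, against 12.11 and 11.81 in untreated cells, a change of −1.53 and −2.04. Cdk1 itself differed by −0.82 and −2.02 and Ccna2, cyclin A2, by −0.82 and −1.62. Both wt exosome arrays lay below both untreated arrays for each of these 3 genes. Plk1, the kinase that matures centrosomes and activates Cdk1, lay at 7.64 and 7.10 after wt exosomes, against 8.78 and 8.88 in untreated cells (−1.14 and −1.78), and Aurkb, the kinase of the chromosomal passenger complex, at 8.60 and 7.95 after wt exosomes, against 9.77 and 9.68 in untreated cells (−1.17 and −1.73).

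The 3 members with the largest fitted change act on the spindle and kinetochore. Aspm, which focuses the spindle poles, lay at 7.26 and 6.88 after wt exosomes, against 9.02 and 9.09 in untreated cells. Its fitted change was −1.98 ± 0.26 (SE of the fit with the number as a block, 2 arrays in each group). Nusap1, which bundles spindle microtubules near chromatin, lay at 6.85 and 6.19 after wt exosomes, against 8.37 and 8.62 in untreated cells (−1.97 ± 0.31). Cenpf, a protein of the outer kinetochore, lay at 6.53 and 5.36 after wt exosomes, against 7.99 and 7.57 in untreated cells (−1.84 ± 0.27). Their wt exosome arrays did not overlap with the untreated ones in any of the 3 genes. Knstrn, a kinetochore partner of the spindle, differed by −1.47 and −2.18, Dlgap5, which stabilizes kinetochore fibres, by −1.10 and −1.77, and Hmmr, which also acts at the poles, by −1.15 and −2.50.

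Genes of the checkpoint and of the exit from mitosis also stood lower. The kinetochore subunit Ndc80 differed by −1.43 and −1.36, the spindle checkpoint kinase Bub1b by −1.39 and −1.39 and its relative Bub1 by −1.13 and −1.34. Ube2c, the conjugating enzyme of the anaphase-promoting complex, lay at 7.98 and 7.31 after wt exosomes, against 9.14 and 9.14 in untreated cells (−1.16 and −1.82), and Cdc20, its activator, differed by −0.97 and −1.87. For the last step, cytokinesis, Prc1, which crosslinks the central spindle, lay at 8.98 and 8.60 after wt exosomes, against 10.32 and 10.78 in untreated cells (−1.76 ± 0.24) and Kif23, its motor partner, at 9.16 and 7.97 after wt exosomes, against 10.32 and 9.57 in untreated cells (−1.38 ± 0.19). Again each of these genes was lower on both wt exosome arrays than on either untreated array. Outside the list, Ube2t, a conjugating enzyme of DNA crosslink repair, differed by −1.24 and −2.22, and Fam83d, a spindle protein, by −1.58 and −1.36.

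The exceptions in the list were few. Mad2l1, a spindle checkpoint protein, differed by −1.16 and 0.29, in opposite directions, and lay near the lower end of detection. Mki67, the widely used proliferation marker, lay at 5.93 and 6.21 after wt exosomes, against 6.49 and 6.45 in untreated cells, a fitted change of −0.40 ± 0.25, smaller than most of the list. Cenpa, the centromeric histone, was not detected on either wt exosome array and was detected on both untreated arrays (means of 4.65 after wt exosomes and 5.11 in untreated cells).

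**Figure D2:**
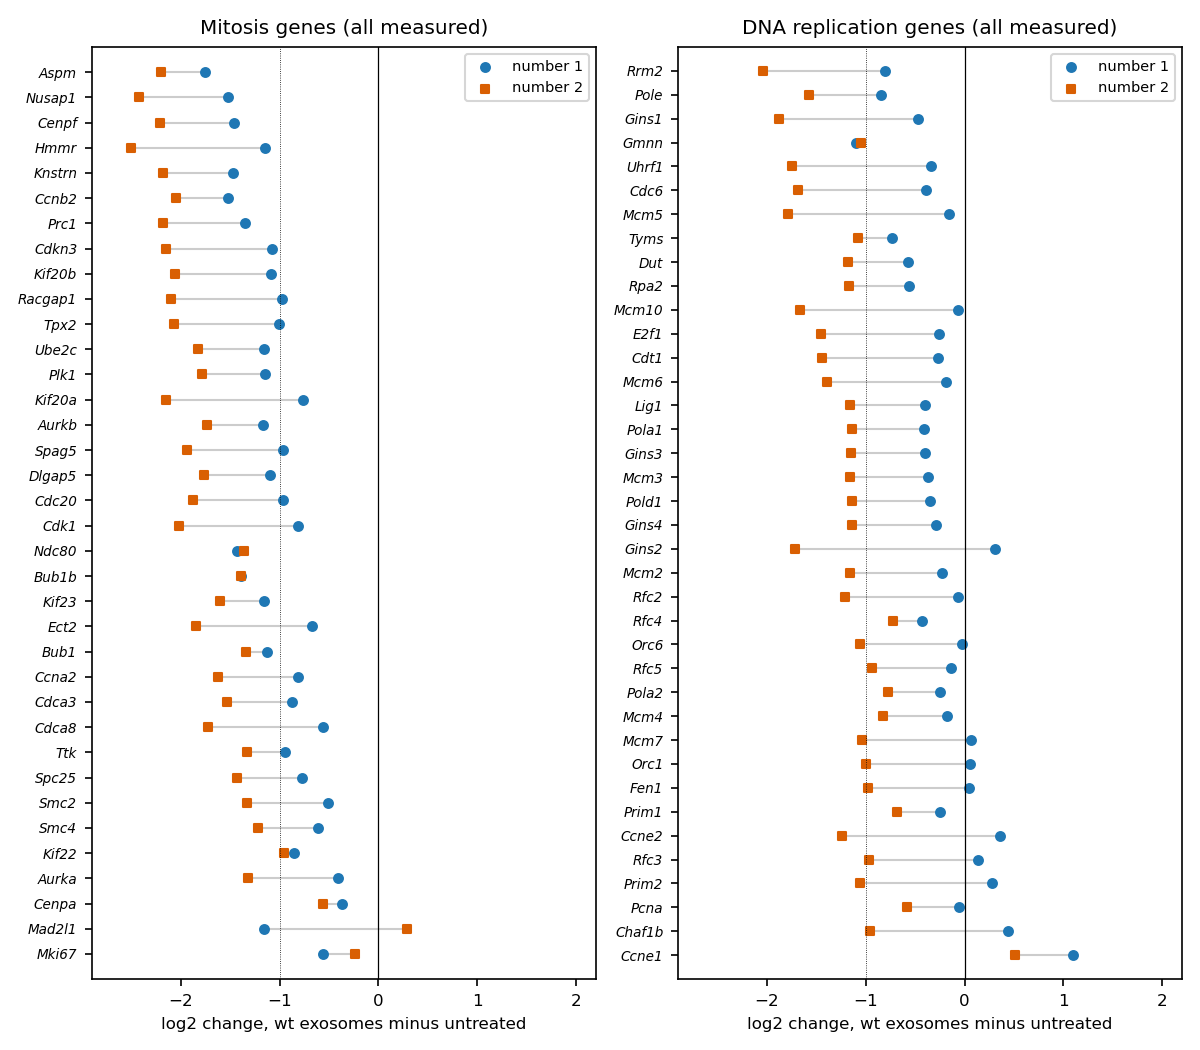
Change of every measured mitosis gene (left) and DNA replication gene (right) in number 1 (circles) and number 2 (squares), in log2, wt exosomes minus untreated, sorted by the mean of both; the dotted line marks a change of −1. Of the 36 mitosis genes 35 lie left of 0 in both numbers (medians −1.04 and −1.78) and Mad2l1 lies right of 0 in number 2, while replication genes lie near 0 in number 1 (median −0.244) and left of −1 in number 2 (median −1.15).

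DNA replication genes lay lower mainly in number 2. All 38 on the array, of 42 listed, passed the filter. In both numbers 29 lay lower and 1 higher, and 8 lay in opposite directions. Over all probes these shares were 24.6%, 27.6% and 47.5%. The median change of the list was −0.244 in number 1 and −1.15 in number 2. Limma's unadjusted p was under 0.05 in 22 of the 38, all lower, beside 3.22% of all probes lower and 2.36% higher. Genes that supply nucleotides were among the clearest: Rrm2, the regulated subunit of ribonucleotide reductase, lay at 10.78 and 9.28 after wt exosomes, against 11.59 and 11.32 in untreated cells (−1.42 ± 0.32), Tyms, thymidylate synthase, differed by −0.74 and −1.08, and Dut, which removes dUTP, by −0.57 and −1.17. Both wt exosome arrays of Rrm2 lay below both untreated arrays. Gmnn, the licensing inhibitor geminin, whose transcript peaks after the start of S phase, was the only member that passed 1 in both numbers (−1.10 and −1.04). The Mcm helicase subunits on the array split by number: Mcm2 differed by −0.22 and −1.16, Mcm3 by −0.37 and −1.16, Mcm4 by −0.18 and −0.82, Mcm5 by −0.15 and −1.79, Mcm6 by −0.19 and −1.39 and Mcm7 by 0.06 and −1.04. Pcna, the sliding clamp, differed by −0.06 and −0.58. Ccne1, cyclin E1 of the G1 to S transition, was the member that lay higher in both (1.09 and 0.51). Cell cycle inhibitors and p53 targets showed no such shift, with medians of −0.0543 in number 1 and 0.13 in number 2. Of 20 measured genes 3 lay higher in both numbers, 4 lower in both and 13 in opposite directions. Over all probes these shares were 27.6%, 24.6% and 47.5%. Limma's unadjusted p was under 0.05 in 0 of the 20, beside 2.36% of all probes higher and 3.22% lower. At such shares 0 of so few genes says little. In that list Gadd45a, a p53 target, differed by 0.47 and 0.13 and Tp53inp1 by −0.41 and −0.45.

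The marker lists ran in opposite directions in the 2 numbers. The summed signal of the epithelial markers was 55900 and 20600 after wt exosomes, against 80300 and 15000 in untreated cells. It was lower after wt exosomes in number 1 and higher in number 2, and the brightest markers weigh most in it. The 15 measured epithelial genes had median changes of −0.394 and 0.542. In both numbers 3 lay higher and 1 lower, and 11 lay in opposite directions. Over all probes these shares were 27.6%, 24.6% and 47.5%. Krt7, a keratin, went against the sum in number 1 (8.02 and 5.66 after wt exosomes, against 4.65 and 5.04 in untreated cells). The stroma markers summed to 61000 and 160000, against 42100 and 168000, the opposite pattern. On untreated array 1 the epithelial sum of 80300 exceeded the stroma sum of 42100. The markers of that array do not bear out the name of stromal cells alone. Mitosis genes lay lower in both numbers, and the part of the marker shift in that result was not tested.

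By the size of the change alone, 39 probes lay lower by at least 1 in both numbers (0.335% of all tested) and 31 higher by at least 1 (0.267%), beside 38 that passed 1 in opposite directions (0.327%). The 39 held 28 named genes, 19 of them in the mitosis or replication lists; the 31 held 28 named genes and the 38 held 34, with 0 in those lists. Across all probes the 2 changes correlated weakly (Pearson's r = 0.08 and Spearman's rho = 0.0637 over 11631 probes, which share their arrays and are not independent replicates). Among the others that passed 1 were further genes of the same phases: Pbk, a mitotic kinase (−1.02 and −2.39), Ccnf, cyclin F (−1.04 and −1.14), Clspn, the replication checkpoint protein claspin (−1 and −1.18), and Iqgap3, a scaffold expressed in dividing cells (−1.26 and −1.25). These 4 were chosen after their values were seen.

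Promoters of 4 of the genes that lay lower are shown because the members stood lower together. The windows are RefSeq promoters on GRCr8, 250 bases before to 50 bases after the start of the gene, 5′ to 3′ on the gene's strand. Capitals mark TTTGAA and CCAAT on either strand (TTCAAA and ATTGG on the other).
Ccnb2 (chr8:79981609-79981908, minus strand): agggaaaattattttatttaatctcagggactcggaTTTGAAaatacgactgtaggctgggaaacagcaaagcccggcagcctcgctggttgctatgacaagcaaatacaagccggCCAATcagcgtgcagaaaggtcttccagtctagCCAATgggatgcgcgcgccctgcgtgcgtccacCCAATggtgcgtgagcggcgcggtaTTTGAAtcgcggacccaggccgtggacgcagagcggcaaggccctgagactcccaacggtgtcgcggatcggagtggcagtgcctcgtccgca
Aspm (chr13:53625334-53625633, plus strand): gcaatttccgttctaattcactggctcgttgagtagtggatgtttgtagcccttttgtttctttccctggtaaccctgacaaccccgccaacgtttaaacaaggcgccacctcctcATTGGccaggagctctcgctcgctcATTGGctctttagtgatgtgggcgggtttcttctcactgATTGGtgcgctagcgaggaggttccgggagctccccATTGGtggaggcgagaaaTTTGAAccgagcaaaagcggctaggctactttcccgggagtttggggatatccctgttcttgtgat
Cenpf (chr13:103760837-103761136, minus strand): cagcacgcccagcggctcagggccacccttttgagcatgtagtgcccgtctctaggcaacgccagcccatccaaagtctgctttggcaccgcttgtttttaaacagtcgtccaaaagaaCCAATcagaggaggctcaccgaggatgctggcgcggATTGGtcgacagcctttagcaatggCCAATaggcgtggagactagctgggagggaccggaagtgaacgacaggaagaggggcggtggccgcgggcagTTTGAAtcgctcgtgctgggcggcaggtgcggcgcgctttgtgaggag
Plk1 (chr1:186147408-186147707, plus strand): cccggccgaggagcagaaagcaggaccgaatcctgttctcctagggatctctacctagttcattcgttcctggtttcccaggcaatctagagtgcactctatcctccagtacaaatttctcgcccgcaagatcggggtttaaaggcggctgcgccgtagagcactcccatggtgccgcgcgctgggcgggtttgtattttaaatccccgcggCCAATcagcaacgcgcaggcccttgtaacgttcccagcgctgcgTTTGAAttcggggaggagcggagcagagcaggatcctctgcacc
Ccnb2 held TTTGAA at −43 to −38 from the start and CCAAT at −134, −101 and −68, with a further TTTGAA at −214. In Aspm TTTGAA lay at −16 to −11 with 4 CCAAT boxes before it, in Cenpf at 3 to 8 with 3, and in Plk1 at 7 to 12 with 1 at −38. The promoters shown all hold both motifs, as did those of Prc1, Kif23, Nusap1 and Fam83d. Dlgap5 and Ube2t held CCAAT without TTTGAA, and Bub1b, Ndc80 and Knstrn held TTTGAA without CCAAT. Of the 36 measured mitosis genes 31 had a promoter in the table; 26 (83.9%) held TTTGAA, 25 (80.6%) CCAAT and 22 (71%) both. Of all 33469 promoters 18.3% held TTTGAA, 37.5% CCAAT and 7.41% both. Of the 31 replication genes with a promoter 2 (6.45%) held TTTGAA and 18 (58.1%) CCAAT. The genes that lay lower by at least 1 in both numbers held TTTGAA in 16 of 23 promoters (69.6%), and those that lay higher in 3 of 20 (15%). These shares describe letters in a window, and no binding was measured.

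Among the genes that stood higher were matrix-degrading proteases. Mmp3, stromelysin-1, cleaves matrix proteins and activates other metalloproteinases. It lay at 10.32 and 13.72 after wt exosomes, against 6.86 and 9.50 in untreated cells. On this scale the change of 3.46 and 4.22 was more than 10-fold in each number. Both wt exosome arrays lay above both untreated arrays, as was so for 1456 (12.5%) of all 11631 probes. The fitted change of Mmp3 was 3.84 ± 1.09 with an unadjusted p of 0.0125, and limma's adjusted threshold was not reached. Over all settings that change lay between 2.43 and 5.25. Mmp10, stromelysin-2, lay at 4.75 and 8.88 after wt exosomes, against 4.53 and 4.62 in untreated cells. It was not detected on either untreated array, so the means of 6.82 after wt exosomes and 4.58 in untreated cells stand for at least 4.64-fold higher, and nearly all of that came from number 2. In the authors' values the log2 difference of Mmp10 was 0.806, and without wt exosome array 2 it was 0.266. Adamts1, which cleaves versican and aggrecan, lay at 8.56 and 12.07 after wt exosomes, against 6.42 and 10.77 in untreated cells (2.14 and 1.30). Number 2 stood higher than number 1 in both states for Adamts1, so its groups overlapped while each number stood higher after wt exosomes.

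Of the 18 measured protease genes, out of 36 listed, 8 lay higher in both numbers, 0 lower in both and 10 in opposite directions. Over all probes these shares were 27.6%, 24.6% and 47.5%. The median changes of the protease list were 0.267 and 0.363. Mmp9, gelatinase B, differed by 0.00 and 1.72, Mmp14, the membrane-bound collagenase that activates Mmp2, by 0.71 and 0.09, and Adamts4 by 0.31 and 0.60. The lysosomal protease Ctsl, among the brightest, differed by −0.05 and 0.17. Of the 19 measured protease inhibitors, 7 lay higher in both numbers, 1 lower in both and 11 in opposite directions, with medians of 0.338 and 0.165. Slpi, a secreted inhibitor of neutrophil elastase, lay at 13.74 and 11.88 after wt exosomes, against 12.82 and 9.56 in untreated cells (0.92 and 2.32), and A2m, the broad-range trap alpha-2-macroglobulin, at 10.07 and 9.13 after wt exosomes, against 8.40 and 6.39 in untreated cells (1.67 and 2.74). Slpi and A2m were both lower in number 2 than in number 1. Reck, a membrane-anchored inhibitor of metalloproteinases, differed by 0.34 and 0.65, Cst3, cystatin C, by 0.66 and 0.38, and Timp1 by 0.41 and −0.44.

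The promoters of both stromelysin genes are shown because each holds the AP-1 consensus, the site of Fos and Jun dimers. Capitals mark TGANTCA and, in Mmp3, also TTTGAA.
Mmp3 (chr8:12925031-12925330, plus strand): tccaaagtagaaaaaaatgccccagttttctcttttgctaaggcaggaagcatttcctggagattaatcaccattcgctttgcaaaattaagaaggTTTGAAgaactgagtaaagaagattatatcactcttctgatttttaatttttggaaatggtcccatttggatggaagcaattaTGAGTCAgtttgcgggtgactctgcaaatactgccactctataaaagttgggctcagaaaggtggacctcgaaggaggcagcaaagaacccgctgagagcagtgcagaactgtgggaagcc
Mmp10 (chr8:12974457-12974756, plus strand): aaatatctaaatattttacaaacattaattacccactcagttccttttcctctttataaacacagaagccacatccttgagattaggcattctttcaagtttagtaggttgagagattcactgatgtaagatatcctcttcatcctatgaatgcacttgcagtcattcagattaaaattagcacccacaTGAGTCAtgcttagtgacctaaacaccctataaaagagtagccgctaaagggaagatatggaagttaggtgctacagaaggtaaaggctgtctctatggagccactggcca
TGANTCA lay at −71 to −65 in Mmp3 and at −61 to −55 in Mmp10; 7.33% of all 33469 promoters held it on either strand. Of the 20 promoters of genes that lay higher by at least 1 in both numbers, 2 (10%) held it, near the share of all promoters. Those 2 were Mmp3 and Olr1 (at −30 to −24). Mmp10 was not among the 20, since it passed 1 only in number 2. Fos differed by 0.65 and −1.58 and Jun by −0.72 and −0.36 at 24 h.

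Adhesion molecules that hold leukocytes on stroma lay higher in both numbers. Vcam1, the ligand of integrin alpha-4 beta-1, lay at 7.40 and 12.64 after wt exosomes, against 6.23 and 11.14 in untreated cells, a fitted change of 1.33 ± 0.19 with the smallest unadjusted p among genes that lay higher (3.7e-04). Icam1, the ligand of the leukocyte integrin LFA-1, lay at 9.68 and 14.15 after wt exosomes, against 9.07 and 12.87 in untreated cells (0.95 ± 0.19). For both genes number 2 was far brighter than number 1 in either state, the 2 groups overlapped, and within each number the wt exosome array was the higher. Of the 21 measured integrin and adhesion genes, 8 lay higher in both numbers, 4 lower in both and 9 in opposite directions. Over all probes these shares were 27.6%, 24.6% and 47.5%. The medians of the list were 0.254 and −0.0846, on opposite sides of 0. Cd44, the hyaluronan receptor whose variants the series concerns, lay in the recipient cells at 9.05 and 10.31 after wt exosomes, against 9.66 and 10.98 in untreated cells (−0.64 ± 0.18), lower in both numbers. The tetraspanin Tspan8, which tumour exosomes carry, stood at 14.30 and 12.23 after wt exosomes, against 14.70 and 10.74 in untreated cells, lower in number 1 and higher in number 2. Whether the Cd44 probe reads the variant exons is not stated by the annotation used here.

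Several inflammatory genes lay higher, some by more in number 2 and some by more in number 1. Ptgs2, the inducible cyclooxygenase, lay at 11.33 and 11.73 after wt exosomes, against 9.56 and 8.94 in untreated cells (1.77 and 2.79), and both wt exosome arrays lay above both untreated ones. Cxcl1, a neutrophil chemokine, lay at 13.61 and 14.27 after wt exosomes, against 13.12 and 12.90 in untreated cells (0.49 and 1.37). Cxcl2, its relative, lay at 9.02 and 11.04 after wt exosomes, against 7.59 and 5.13 in untreated cells (1.43 and 5.91). Both Cxcl1 and Cxcl2 stood above both untreated arrays on both wt exosome arrays. That pattern, shared by Ptgs2, held for 1456 (12.5%) of all 11631 probes. Ccl20, the ligand of CCR6, lay at 5.67 and 10.48 after wt exosomes, against 5.19 and 4.44 in untreated cells, and Csf2, the growth factor GM-CSF, at 6.53 and 9.32 after wt exosomes, against 5.07 and 4.64 in untreated cells. Each was detected on 1 of the 2 untreated arrays and on both wt exosome arrays, with differences of 0.48 and 6.05 for Ccl20 and 1.46 and 4.68 for Csf2, far larger in number 2. The monocyte chemokines Ccl2 and Ccl7 differed by 1.15 and 0.71 and by 1.57 and 0.81, more in number 1.

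**Figure D3:**
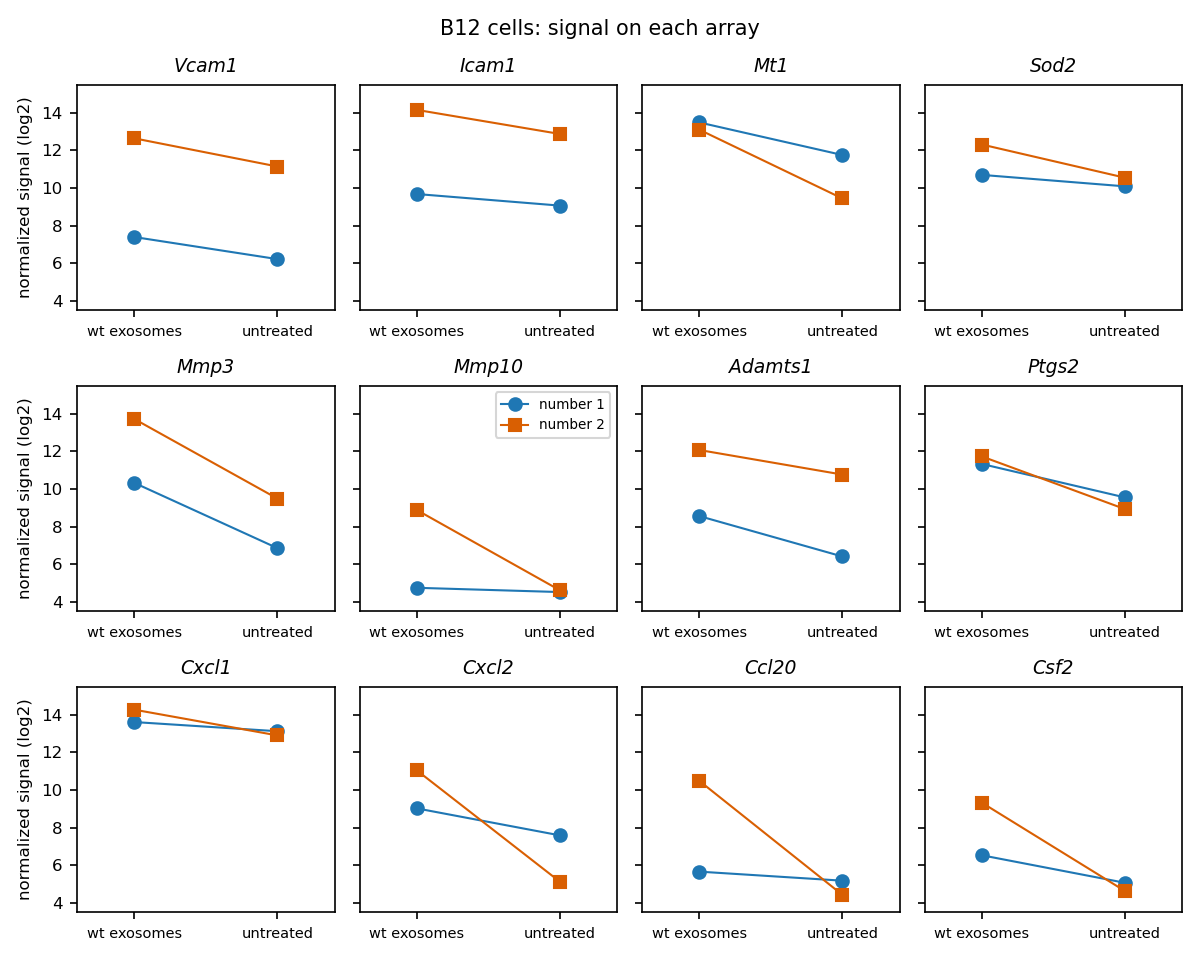
Normalized signal (log2) of 12 genes on each of the 4 arrays, wt exosomes on the left and untreated on the right of each panel, with a line joining the 2 arrays of the same replicate number. Every line falls to the right, Mmp3 by 3.46 and 4.22, while Mmp10, Cxcl2, Ccl20 and Csf2 fall steeply in number 2 and less in number 1.

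Not all inflammatory genes followed. Of 22 measured chemokines and cytokines, 8 lay higher in both numbers, 4 lower in both and 10 in opposite directions. Over all probes these shares were 27.6%, 24.6% and 47.5%. The list's median was −0.0767 in number 1 and 0.715 in number 2. Il1rn, the interleukin-1 receptor antagonist, lay lower in both (−0.29 and −1.49), as did Il1r2, the decoy receptor of interleukin-1 (−1.03 and −0.89), which was detected on 1 of the 2 wt exosome arrays. Il6 differed by −0.27 and 0.87, Ccl5 by −0.73 and 2.54 and Cxcl10, an interferon-induced chemokine, by −1.11 and 0.87. Cxcl12 differed by 0.27 and 0.15. Among 32 immediate early and NF-kappaB genes the median was −0.0427 in number 1 and 0.319 in number 2. Nfkbia, the inhibitor that NF-kappaB itself induces, differed by −0.15 and 0.88 and Birc3, another such target, by −0.23 and 1.80. Ier3, an early response gene, lay higher in both (0.55 and 0.80), and the Kruppel-like factor Klf6 lower in both (−0.59 and −0.55). Interferon-induced genes showed medians of −0.34 and 0.163 (16 measured) and antigen presentation genes −0.198 and 0.288 (16 measured). Either list had 0 genes at an unadjusted p under 0.05 in limma, beside 2.36% of all probes higher and 3.22% lower. In the same arrays the summed signal of the leukocyte markers was 7550 and 3490 after wt exosomes, against 10200 and 2270 in untreated cells, lower in number 1 and higher in number 2, with 3 and 3 of 19 markers detected, against 4 and 6. Cd14 was the brightest member on each of the 4 arrays (12.80 and 11.45, against 13.35 and 10.91), so the sum mainly follows that gene. Ptprc, Cd3d, Cd3e and Cd3g were not detected on any of the 4, and the sum is no measure of leukocytes. The part of this sum in the differences between numbers was not tested.

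Mt1, metallothionein 1, which binds zinc and copper and responds to metals, glucocorticoids and oxidants, had one of the clearest differences. It lay at 13.48 and 13.10 after wt exosomes, against 11.76 and 9.45 in untreated cells (2.69 ± 0.42), so both wt exosome arrays stood above both untreated arrays. Sod2, the mitochondrial superoxide dismutase that NF-kappaB induces, lay at 10.70 and 12.31 after wt exosomes, against 10.09 and 10.55 in untreated cells (0.61 and 1.76), and Hmox1, haem oxygenase 1, at 9.83 and 10.36 after wt exosomes, against 9.40 and 9.25 in untreated cells (0.44 and 1.12). The glutathione genes Gclc and Gclm, targets of Nrf2, differed by −0.45 and −0.18 and by −0.50 and −0.16, and Nqo1, another, by −0.84 and −0.08. These 3 lay lower in both numbers. Over all 34 measured genes of the oxidative stress list, 11 lay higher in both and 9 lower in both, beside 27.6% and 24.6% of all probes. The medians of the list were −0.0733 and 0.148. Among single genes with small p, Hp, haptoglobin, lay at 6.94 and 10.65 after wt exosomes, against 5.66 and 8.36 in untreated cells (1.28 and 2.29), Cp, the ferroxidase ceruloplasmin, at 10.44 and 10.87 after wt exosomes, against 8.81 and 9.72 in untreated cells (1.63 and 1.16), and Slc40a1, the iron exporter ferroportin, at 10.02 and 6.85 after wt exosomes, against 8.29 and 5.80 in untreated cells (1.73 and 1.06). For Cp, as for Mt1, both wt exosome arrays lay above both untreated arrays, which held for 12.5% of all probes. For Hp and Slc40a1 the gap between the numbers was wider than the change.

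Other genes chosen by small p were of varied function. Rasl11b, a small GTPase, lay at 11.05 and 11.80 after wt exosomes, against 9.44 and 10.73 in untreated cells (1.60 and 1.06), Cpe, a carboxypeptidase of secretory granules, at 7.44 and 9.66 after wt exosomes, against 5.89 and 8.58 in untreated cells (1.54 and 1.09), and Cited2, a transcriptional coregulator, differed by 0.93 and 1.04. Olr1, the scavenger receptor LOX-1, was not detected on either untreated array and stood at least 3.39-fold higher after wt exosomes (means of 6.33 after wt exosomes and 4.48 in untreated cells). Asgr1, the asialoglycoprotein receptor known from hepatocytes, likewise stood at least 2.88-fold higher (means of 6.20 after wt exosomes and 4.68 in untreated cells). These bounds hold for the offset of 16 used here: in the authors' values the log2 difference was 0.462 for Olr1 and 0.381 for Asgr1. Glb1l2, a relative of beta-galactosidase, differed by 1.14 and 1.61, and over all settings its fitted change lay between 0.387 and 1.67. Lmcd1, a LIM domain cofactor of transcription, had differences of 2.93 and 2.09, and Kng1, kininogen, of 1.93 and 2.21; these 2 were chosen after their values were seen.

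Genes of protein folding in the endoplasmic reticulum stood slightly higher, by like amounts in both numbers. Of 26 measured genes of the unfolded protein response, 16 lay higher in both numbers, 1 lower in both and 9 in opposite directions. Over all probes these shares were 27.6%, 24.6% and 47.5%. Limma's unadjusted p was under 0.05 in 8 of the 26, all higher, beside 2.36% of all probes higher and 3.22% lower. The medians of the list were 0.327 and 0.398, close to each other, beside 0.0178 and 0.00714 for all probes. Hspa5, the chaperone BiP, lay at 13.67 and 14.26 after wt exosomes, against 13.18 and 13.68 in untreated cells (0.49 and 0.58), Creld2, a secreted chaperone, at 8.65 and 9.63 after wt exosomes, against 7.70 and 8.53 in untreated cells (0.94 and 1.11), and Xbp1, the transcription factor of the IRE1 branch, at 11.54 and 11.73 after wt exosomes, against 11.07 and 11.27 in untreated cells (0.47 and 0.46). For Creld2 the lower wt exosome array stood just above the higher untreated array, an order found in 12.5% of all probes. Manf, Dnajb11, Dnajb9, Selenos and P4hb lay higher in both numbers by 0.32 to 0.66. Not every gene of the response stood higher: Ddit3, the factor CHOP, differed by −0.72 and 0.07, Atf4 by 0.18 and −0.83 and Herpud1 by −0.32 and −0.32. Genes of the amino acid response, which Atf4 drives, had medians of 0.0525 and −0.39, with Psph, a serine synthesis enzyme, lower in both (−0.38 and −0.69). Cytosolic heat shock genes had medians of 0.0975 and 0.103 over 10 measured.

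Matrix genes separated the numbers. The median of 30 measured matrix genes was 0.875 in number 1 and −0.215 in number 2. In both numbers 10 lay higher and 1 lower, and 19 lay in opposite directions. Over all probes these shares were 27.6%, 24.6% and 47.5%. Col1a1, the main chain of type I collagen, lay at 10.16 and 10.62 after wt exosomes, against 7.68 and 10.74 in untreated cells, and Col3a1, of type III collagen, at 12.78 and 11.44 after wt exosomes, against 10.55 and 12.08 in untreated cells. In number 1 both collagens were much higher after wt exosomes, and in number 2 neither was. Postn, periostin, differed by 2.47 and −1.32 and Dcn, decorin, by 1.60 and −0.07. These went with the stroma markers as a whole, whose summed signal is given above and whose list held Col1a1, Col3a1, Postn and Dcn too; the part of the marker shift in the matrix result was not tested. Some matrix genes differed the same way in both numbers: Mgp, the inhibitor of calcification matrix Gla protein, at 7.52 and 14.57 after wt exosomes, against 6.22 and 13.32 in untreated cells (1.29 and 1.25), and Col4a1, of basement membrane collagen, at 8.36 and 8.88 after wt exosomes, against 7.39 and 7.57 in untreated cells (0.97 and 1.31). Col15a1 lay lower in both (−2.12 and −0.41), and P4ha2, a collagen prolyl hydroxylase, higher in both (0.76 and 0.73).

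Of 32 measured growth and angiogenic factors, 13 lay higher in both numbers, 4 lower in both and 15 in opposite directions. Over all probes these shares were 27.6%, 24.6% and 47.5%. Edn1, endothelin 1, a vasoconstrictor and mitogen, lay at 11.98 and 11.81 after wt exosomes, against 10.50 and 10.89 in untreated cells (1.48 and 0.92). Its wt exosome arrays both lay above both untreated arrays, as was so for 12.5% of all probes. Ccn2, connective tissue growth factor, among the brightest genes, lay at 15 and 15.05 after wt exosomes, against 13.80 and 14.68 in untreated cells (1.19 and 0.38). Fst, follistatin, the antagonist of activins, differed by 1.47 and 1.15, Ereg, an epidermal growth factor receptor ligand, by 0.61 and 1.11, and Bmp2 by 0.96 and 0.84. Vegfa, the main angiogenic factor, differed by 0.07 and −0.51 and Hgf by −1.23 and 0.43. The median was 0.281 in number 1 and 0.0391 in number 2.

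**Figure D4:**
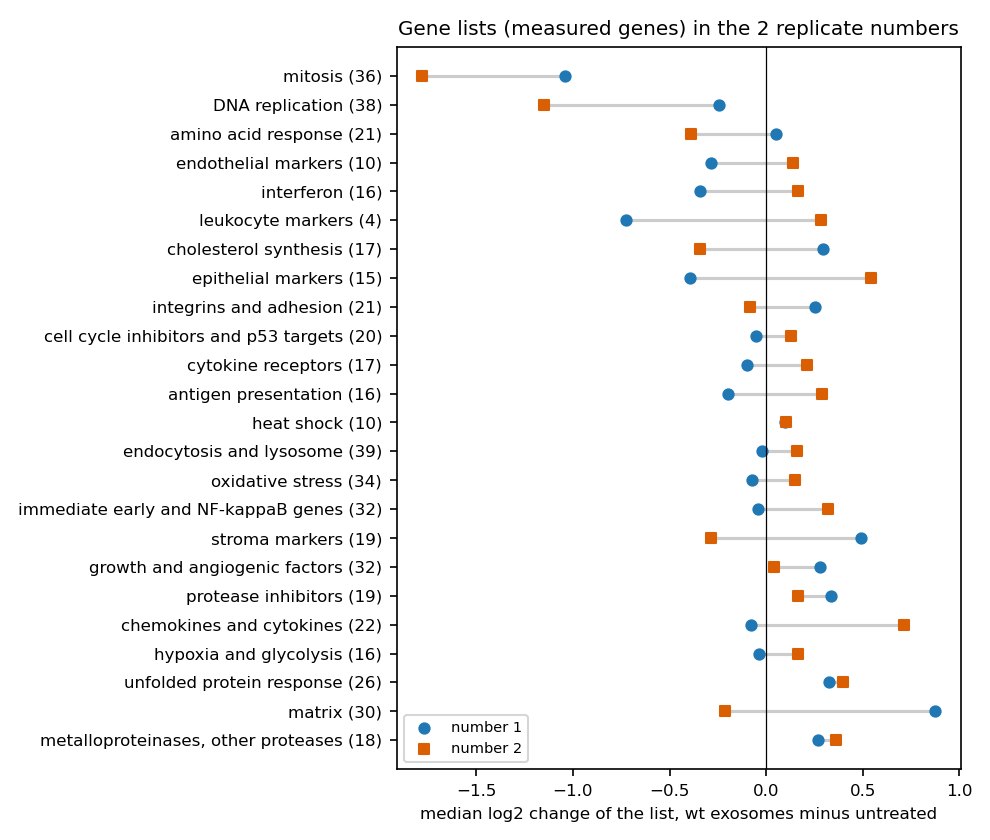
Median log2 change of each gene list (number of measured genes in brackets), wt exosomes minus untreated, in number 1 (circles) and number 2 (squares). Mitosis stands far left in both numbers, the unfolded protein response sits at 0.327 and 0.398, and the matrix, chemokine and epithelial lists have their 2 medians on opposite sides of 0.

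The remaining lists had smaller medians or mixed directions. Cholesterol synthesis genes had medians of 0.296 in number 1 and −0.343 in number 2 over 17 measured. In opposite directions lay 14 of them, beside 47.5% of all probes. Cytokine receptors had medians of −0.101 and 0.211 over 17, and endocytosis and lysosome genes −0.0217 and 0.162 over 39. In the last list Atp6v1b2, a subunit of the proton pump, lay higher in both (0.40 and 0.51) and Cltb, a clathrin light chain, lower in both (−0.57 and −0.44). Hypoxia and glycolysis genes had medians of −0.0363 and 0.164 over 16. In both numbers 5 lay higher and 3 lower, beside 27.6% and 24.6% of all probes. The endothelial markers had medians of −0.287 and 0.138 over 10; Vwf, von Willebrand factor, was not detected on either wt exosome array and was detected on both untreated arrays, at least 1.60-fold lower (means of 4.33 after wt exosomes and 5.19 in untreated cells), a difference of −0.257 in the authors' values.

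Named genes that passed 1 in opposite directions numbered 34, beside 28 that lay lower and 28 that lay higher. Mfap5, a microfibril protein of fibroblasts, lay at 7.00 and 7.64 after wt exosomes, against 5.02 and 10.32 in untreated cells (1.98 and −2.69). S100a8, a calprotectin subunit, lay at 5.44 and 9.01 after wt exosomes, against 7.05 and 5.07 in untreated cells (−1.62 and 3.93), and Pla2g2a, a secreted phospholipase, at 10.23 and 13.85 after wt exosomes, against 12.30 and 10.67 in untreated cells (−2.07 and 3.18). In each of these 3 genes the wt exosome arrays overlapped with the untreated ones. Elf3, an epithelial transcription factor, differed by −1.02 and 1.29 and Snai1, a mesenchymal one, by 1.13 and −1.30. These 5 were chosen after their values were seen.

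Whether transcripts carried by the exosomes stood higher in treated cells was asked with a set chosen without the 4 arrays. It held 200 named probes detected on all 3 wt exosome arrays. Their rank in wt exosomes most exceeded that in B12 cells given kd exosomes. That rule favours probes that are dim in B12 cells, and 68 of the 200 passed the filter on dim probes. The B12 cells used for the choice had themselves received kd exosomes. A median near 0 therefore follows in part from the choice, and the set cannot decide the question. The median change of the 200 was −0.0149 in number 1 and 1.8e-05 in number 2. They lay higher in both numbers in 49 cases (24.5%) and lower in both in 55 (27.5%), beside 25.9% and 25% of all 21946 probes. On the wt exosome arrays 82 and 80 of the 200 were detected, against 78 and 77 on the untreated arrays. Epcam, the epithelial adhesion molecule with the largest rank difference, lay at 4.16 and 4.19 after wt exosomes, against 4.18 and 4.17 in untreated cells and was not detected on any of the 4 arrays, nor were Cd83, Bspry, Trpm5, Pf4 and Hbb. Detected on both wt exosome arrays and on neither untreated array were 3 of the 200: Tec, a kinase known from haematopoietic cells (5.40 and 5.56 after wt exosomes, against 4.47 and 4.50 in untreated cells), Bcl2l14, an apoptosis facilitator (4.69 and 5.11 after wt exosomes, against 4.32 and 4.42 in untreated cells), and Man2a1, a Golgi mannosidase (5.42 and 5.31 after wt exosomes, against 4.51 and 4.39 in untreated cells). The reverse held for 2, Misp and Bik. The 3 and 2 are 1.5% and 1% of the 200, near the background: over all 21946 probes 220 (1%) were gained in this way and 166 (0.756%) lost. Tec was at least 1.88-fold higher after wt exosomes on this scale, with a log2 difference of 0.195 in the authors' values.

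The same untreated arrays also serve the cells given kd exosomes, so the 2 sets of changes are not independent and are given side by side only. For the mitosis list the median fitted change was −1.42 with wt exosomes and −0.475 with kd exosomes, against 0.0141 and 0.00839 for all probes. With kd exosomes 34 of the 36 genes lay below untreated in both numbers, as did 2760 of all 11631 probes. Ccnb2 differed by −1.79 with wt and −0.73 with kd exosomes, and Aspm by −1.98 and −0.64. Mt1 differed by 2.69 and 2.37, and Vcam1 by 1.33 and 1.20. For Mmp3 the order turned with the number: with wt exosomes it differed by 3.46 and 4.22 in numbers 1 and 2, and with kd exosomes by 4.55 and 0.42. The unfolded protein response list had medians of 0.271 with wt and 0.308 with kd exosomes. Limma called 0 of 11631 probes between the 2 treatments, so no difference between the treatments passed the test for any of these genes.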

How the data were processed

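Total RNA was labelled as biotinylated cRNA and read on 12 Illumina arrays, per the labels' protocols. Per the file headers, each array of the deposited table has, per probe, a mean intensity and its p-value, without normalization; the scanner software was not named in the labels. The p-value was read from the values as two-sided against background, and a probe counted as detected at p under 0.05 with an intensity above the median of probes with p above 0.9 on that array. A second deposited table holds intensity values that the authors had normalized by a method that the labels do not name. It is linear and not centred, with column medians of 120.4 and 120.9 for wt exosomes and 121.2 and 119.9 for untreated cells, and it was used as an alternative. No column of per-sample values was left out.

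Of 23365 rows, 848 had no identifier and 571 shared 280 identifiers; 21946 probes were left, of which the platform table gave 13129 1 symbol, 0 several and 8817 none. Gene IDs of 13088 were found in the GRCr8 table, which changed 0 symbols. On the 6 B12 arrays, neqc (limma 3.58.1, R 4.3.3) removed background by normexp, added an offset of 16, took log2 and made the quantiles equal. A probe was kept where every array of some B12 group detected it: 11631, of which 7966 had 1 symbol (7908 genes). Each gene named had 1 probe in the fit except Mcm5, for which the brighter of 2 is given (the other differed by −0.56 and −1.58). Limma's lmFit and eBayes with a trend were run with the replicate number as a block (2 residual degrees of freedom), two-sided, with Benjamini-Hochberg adjustment at 0.05. The kd exosome arrays entered through the normalization, the number effect and the spread. Where no array of a group detected a probe, its level there is a bound, the higher of its own signal and the lowest detected signal, and gets "at least" folds. With 2 arrays against 2 an exact permutation test cannot go below 0.333 and was not used. With the block, p-values and SEs rest on the spread left on the 6 B12 arrays once group and number effects are removed. That is how far the changes differed between the numbers, moderated across probes, and the gap between the numbers does not enter it. Nothing says that replicates were separate cultures, so that spread may be technical, and the number of arrays limits the precision.

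The block was used because changes were to be taken within a number. What a number marks is unsaid in the labels; deviations from group means of B12 arrays with the same number correlated at 0.773 to 0.799, and the first principal component (74.3% of the variance) separated the numbers. With 2 arrays a group, number 2 mirrors number 1 in this check. Without the block limma also called 0 probes (0%; lowest adjusted p 0.9998), and 326 had an unadjusted p under 0.05, against 650 with it.

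Members and the 24 gene lists were chosen with earlier results of these data known, so lists are described by counts and medians with no test. Genes named are the 15 in each direction that passed the threshold, completed, in order of unadjusted p, from probes that differed the same way in both numbers (here all of them), up to 4 members of each list, and always Cd44, Tspan8, Mki67, Mmp3, Mmp10, Cxcl12 and Pdgfra; other members illustrate a list and were chosen after their values were seen. As no gene was called, promoters were counted for genes that passed 1 in log2 in both numbers and for 2 lists. Promoters are RefSeq's (GRCr8), matched by symbol. The fit was tested on simulated data, over 20 simulations of 11631 probes for this comparison. It recovered 34.8% of changes of 1 and 98.2% of changes of 2, with 11.8 false calls on average. The simulated noise was independent and normal at the fitted spread, and each of the 200 planted changes was equal in both numbers. In the data the 2 changes correlated at 0.08, so these shares do not say which real changes would be called. Mt1 (2.69) and Mmp3 (3.84) had adjusted p-values of 0.538 and 0.805 in limma.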

Additional observations from a re-analysis of the deposited data

How the results depend on the processing

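The count of called probes stayed at 0 without the replicate block (lowest adjusted p 0.9998, unadjusted p under 0.05 in 326 probes), with only the 4 arrays of the comparison (0.238), and under each other background correction, offset, normalization, value table, filter, weighting and spread model tried. Leaving out 1 array in turn gave 0 to 15 calls: 7 without wt exosome replicate 1, 1 without untreated replicate 1, 15 (14 higher) without untreated replicate 2, and 0 without any other array. Each of the arrays whose loss gave calls leaves a single pair and a lone array assumed to vary like the rest. Without wt exosome replicate 1 Mmp10 (4.22, adjusted p = 0.0339), Cxcl2 (6.4, 0.0431) and Ccl20 (5.93, 0.0137) passed limma's threshold, without untreated replicate 1 Mt1 (3.49, 0.0204), and without untreated replicate 2 Col1a1 (2.54, 0.0217). Over all settings 26 to 33 of the 36 mitosis genes lay lower at an unadjusted p under 0.05, and the list's median lay between −1.67 and −0.736, the last in the authors' values. The fitted change lay between −2.19 and −0.655 for Cenpf and between −1.66 and −0.462 for Fam83d. The unfolded protein response median lay between 0.201 and 0.433, and the matrix median between −0.278 and 0.933. Probes that passed 1 in both numbers were 10 higher and 7 lower with no background correction, 15 and 21 with an offset of 50, 6 and 2 in the authors' values, and 20 higher with detection on all 6 arrays. The correlation across probes of the change of number 1 with that of number 2 was 0.0371 with no filter. The exosome-rich median was −0.0338 with 100 probes, −0.0235 with 400 and −0.0325 with median scaling, which moved the median of all probes to 0.123 in number 1 and −0.0727 in number 2. Of the named genes' values 1941 kept direction and side of the threshold, 5 passed it and 25 changed sign. Lck turned to 0.00618 (offset of 50) and 0.000284 (cyclic loess), Cd14 to 0.0234 (median scaling) and Pdgfra to 0.0043 (authors' values). Leaving out 1 array turned the sign of Cd14 (−0.432 to 0.412), Tek (−0.764 to 0.00378), RT1-DMb (−0.0325 to 0.852), Cd1d1 (−0.251 to 1.34), Tspan8 (−0.407 to 1.51), Cd68 (−0.774 to 1.6), Lck (−0.582 to 0.522), Plvap (−0.151 to 0.738), Gadd45b (−0.382 to 1.56), Hsd17b7 (−1.15 to 0.0905), Acat2 (−0.0732 to 0.641), Col1a1 (−0.171 to 2.54), Krt19 (−1.6 to 0.308), Lcn2 (−0.183 to 1.91), Pdgfra (−0.623 to 0.129), Slc7a5 (−1.03 to 0.0364), Hspa8 (−0.0209 to 0.265) and Stard4 (−0.835 to 0.0146), with the ranges over the 6 arrays left out in brackets. The cause was not tested. Dim probes limit these arrays: a change below the detection level is a bound.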
